A study of Homo sapiens with 6 samples.

Results

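The genes described here are 10 components of the cellular heat shock system: the transcription factor HSF1, the HSP70 chaperones HSPA8, HSPA1A and HSPA1B, their helpers HSPH1 and DNAJB1, the HSP90 chaperones HSP90AA1 and HSP90AB1, the small heat shock protein HSPB1 and the chaperonin HSPD1. They were picked by name, and the counts of all annotated transcripts of each gene were summed. All 10 had counts and passed the expression filter, out of 61015 genes with a row and 20442 tested. HSPD1 (HSP60) works in the mitochondrion, so the set is not wholly cytosolic.

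RNA came from the MDA-MB-231 line, triple-negative human breast cancer cells with mesenchymal features, that had been made resistant to paclitaxel (PTX), a drug that stabilises microtubules. Resistant cells were sorted by FACS on aldehyde dehydrogenase (ALDH) activity into breast cancer stem cells (BCSC, ALDH+) and ALDH- cells (non-BCSC), with 3 libraries of each. By the study's account every library therefore shared the same line and the same resistance, though the titles of the non-BCSC samples name neither. Parental, drug-sensitive cells were not analysed here. The groups rest on the sample titles, since the cell type label gives stem cells for all 6 libraries, and whether the replicates came from separate cultures or sorts is not stated. The p-values below then measure the spread between these libraries, which may be technical.

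Heat shock proteins are chaperones: they bind unfolded segments of other proteins and help them fold, refold or be degraded. In unstressed cells HSF1 is held inactive by chaperones, and under heat or other protein-damaging stress it is released, forms trimers and binds heat shock elements, inverted repeats of the short unit GAA, in front of its target genes. Cancer cells often depend on this system, and HSP90 in particular stabilises many oncogenic kinases and receptors.

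To show the elements that such targets carry, the 250 bases before each annotated start were searched in the RefSeq promoters (GRCh38.p14), which held 9 of the 10 genes. A match of 2 units, GAANNTTC or TTCNNGAA, each of which reads the same on both strands, lay in 11.6% of all 35116 windows of that length. A match of 3 units, GAANNTTCNNGAA or its reverse complement TTCNNGAANNTTC, lay in 0.441% of windows, and every such match also holds the 2-unit form. Counted per gene, which may have several windows, 14% of 27305 genes held a 2-unit match and 0.557% a 3-unit match. Of the set, windows of HSPA8, HSP90AA1, HSP90AB1 and HSPD1 held a 3-unit match. HSPA1A, HSPA1B, HSPB1 and DNAJB1 held 2-unit matches, and the HSPH1 window held neither. The stretches below are shown so that the HSF1-type elements of inducible and constitutive members can be compared. Capitals mark the match, and each stretch runs 5′ to 3′ on the strand of the gene.
HSPA1A, chr6:31815426-31815455, plus strand: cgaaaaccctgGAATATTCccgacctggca
HSPA1B, chr6:31827622-31827651, plus strand: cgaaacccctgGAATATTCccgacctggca
HSPB1, chr7:76302480-76302509, plus strand: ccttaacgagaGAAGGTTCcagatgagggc
DNAJB1, chr19:14518456-14518485, minus strand: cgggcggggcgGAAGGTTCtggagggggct
HSPA8, chr11:123062170-123062199, minus strand: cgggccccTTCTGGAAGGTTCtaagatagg
HSP90AA1, chr14:102087111-102087140, minus strand: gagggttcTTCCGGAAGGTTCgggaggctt
HSP90AB1, chr6:44247823-44247852, plus strand: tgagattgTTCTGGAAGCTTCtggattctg
HSPD1, chr2:197500059-197500088, minus strand: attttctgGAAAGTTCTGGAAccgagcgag

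The HSPA1A and HSPA1B stretches share the same 8 capital letters. For HSPA1A, HSPA1B and HSPB1 the stretch lay outside the annotated gene, whereas for the other genes printed it lay inside the gene's outer bounds, before a start that is not the outermost. A match says nothing of whether HSF1 was bound in these cells.

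The BCSC libraries held 15925943 to 21215352 counts and the non-BCSC libraries 9898588 to 12263667. The unit CPM (a gene's counts relative to the TMM-scaled size of its library) is used below to compare a gene between libraries. TPM, which also divides by transcript length, is used to compare genes. Values after ± are SD over 3 libraries. The markers of the line (VIM, CD44, AXL, EGFR and MSN) summed to 6317 to 7632 CPM in BCSC and 4121 to 5707 CPM in non-BCSC. Genes listed as low or absent in the line (ESR1, PGR, CDH1, EPCAM and KRT8) summed to 14.4 to 16.8 CPM in BCSC. In non-BCSC their sum was 87.9 to 94.9 CPM. KRT8 alone averaged 6.59 CPM in BCSC and 58.6 CPM in non-BCSC, most of the non-BCSC sum. Of 5 markers of other cell types on file, 2 were tested and both were lower in BCSC, and the sum ran from 0.690 to 2.36 CPM in BCSC and from 17 to 30.1 CPM in non-BCSC. Of the 5 ALDH genes listed, all tested, 3 were lower in BCSC, and their sum overlapped between groups, at 32.0 to 38.3 CPM in BCSC and 26.1 to 44.5 CPM in non-BCSC. In bulk RNA fewer cells of a type and less RNA per cell cannot be told apart. The part of these marker differences in the results below was not tested.

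To ask whether the heat shock system differed between the sorted fractions, each gene was tested in one edgeR quasi-likelihood fit over all 20442 genes, with Benjamini-Hochberg (BH) adjustment. At an adjusted p under 0.05, 5 of the 10 genes were higher in BCSC (HSF1, HSPA1B, HSPB1, DNAJB1 and HSPH1), where 15.3% of all genes were, and 2 were lower (HSP90AA1 and HSPD1), where 14.6% of all genes were. HSP90AA1, HSPD1, HSF1 and HSPA1A changed sign in a fit corrected on all genes for GC content and length. HSPA1A, HSPA8 and HSP90AB1 did not pass. With the study's further criterion of a fold above 2, HSPA1B, HSPB1 and HSF1 remained, against 8.85% of all genes called higher, and both lower genes changed by less than that. In CPM the 3 BCSC values lay above the 3 non-BCSC values for 6 genes and below them for 2, where 24.2% and 27.9% of all genes did so. The median log2 fold change of the 10 genes (BCSC over non-BCSC) was 0.70, and that of all genes was -0.05.

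**Figure D1:**
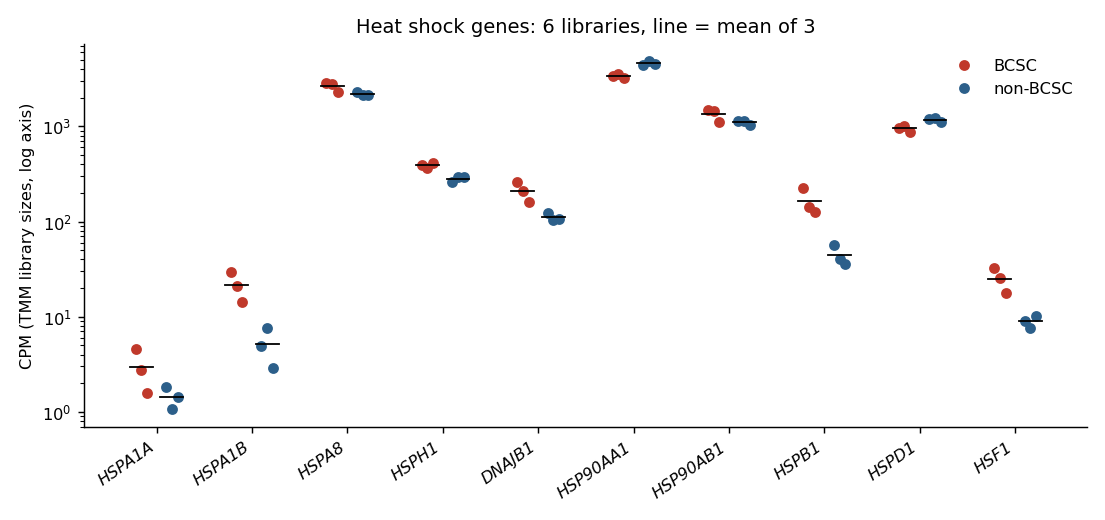
Level of each of the 10 heat shock genes in the 6 libraries, in CPM on a log axis; points are libraries and lines are means of 3. HSPB1, HSPA1B and HSF1 show the widest gaps in favour of BCSC, whereas HSP90AA1 and HSPD1 lie lower in BCSC in these values, which carry no GC correction.

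A property of the sequences moved with these values. The GC content of a gene's transcripts correlated by rank with the log2 fold change at 0.538 across all genes tested and at 0.782 across the 10 genes. These are correlations across genes, which are not independent replicates and share the same 6 libraries. Within a group, pairs of libraries reached a correlation of up to 0.573 in size. Counts were therefore also corrected for the GC content and length of the transcripts, in 2 ways. Fitted on all genes it moved the median log2 fold change of all genes from -0.05 to 0.21, and that of the 5661 abundant genes, whose mean was at least 500 counts, from 0.18 to 0.75. Fitted on those abundant genes alone, a choice made after seeing the data, it gave medians of -0.27 and 0.0026. After the correction fitted on all genes the rank correlation with GC content was -0.118 across all genes and -0.806 across the 10, so within the set the relation turned over in the fit that gives the sign changes of HSP90AA1, HSPD1 and HSF1 and one of the 2 of HSPA1A. After the other correction it was 0.00598 across the abundant genes. Of all genes, 25.9% were then higher and 10% lower with the first correction, and 8.04% were higher and 19.1% lower with the second. Of the 10 genes, 5 were higher and 0 lower with the first, in which the values below 0 were those of HSPA1A and HSF1 at edgeR adjusted p of 0.779 and 0.522. With the second, 4 were higher and 2 lower. The median log2 fold change of the 10 was 0.65 with the first and 0.19 with the second. DNAJB1 and HSPH1 were higher, with an adjusted p under 0.05, in both. In the first, however, DNAJB1 at 0.49 and HSPB1 at 0.31 lay below the 0.75 of abundant genes. Where paired corrected values or counts follow, the first is from the fit on all genes and the second from that on abundant genes. List counts below are to be read beside the shares of all genes, 15.3% and 14.6% without a correction and those above with one.

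**Figure D2:**
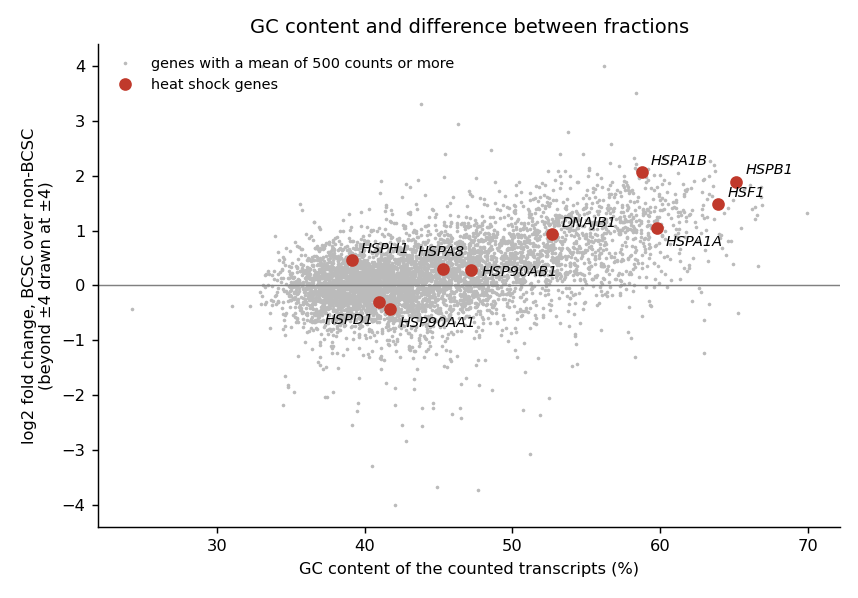
GC content of the counted transcripts against the log2 fold change of BCSC over non-BCSC, for genes averaging at least 500 counts (grey) and the 10 heat shock genes (red; HSPA1A, HSPA1B and HSF1 had lower means). The GC-rich HSPB1, HSF1 and HSPA1B lie at the upper right and HSPD1, HSP90AA1 and HSPH1 at the left, where HSPH1 alone of these 3 lies above 0.

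HSF1, the master regulator of the heat shock response, is encoded on chromosome 8 and was measured at 32.2, 25.3 and 17.7 CPM in BCSC and 8.995, 7.69 and 10.3 CPM in non-BCSC. The highest non-BCSC library lay below the lowest BCSC library. On the log2 scale BCSC exceeded non-BCSC by 1.48 (SE 0.29, edgeR adjusted p = 0.00657), and it stayed at an adjusted p of 0.0312 or less with any library left out. HSF1 is GC-rich (64.0%), and its log2 fold change became -0.24 (adjusted p = 0.522) with the correction fitted on all genes and 0.19 (adjusted p = 0.624) with that fitted on abundant genes. HSF1 mRNA is not a measure of HSF1 activity, which is set largely by phosphorylation, trimer formation and chaperone binding.

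The counts of HSF1 were split differently between annotated transcripts. HSF1-204, a protein-coding form, held 79.5%, 91.2% and 89.1% of the counts in BCSC against 78.0%, 0% and 0% in non-BCSC. In the non-BCSC libraries with none of it, HSF1-201, another coding form of similar length, held 66 and 89 counts. Coding transcripts together took a mean of 87.3% ± 5.60 (SD, n = 3) in BCSC and 83.9% ± 8.42 in non-BCSC (exact two-sided permutation p = 0.7). The smallest p that 3 against 3 libraries allow is 0.1.

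Of the other heat shock factors and the HSF1-binding protein, 3 of 7 listed genes were tested, and 2 passed, both lower in BCSC. HSBP1, which binds HSF1 trimers and dampens their activity, was at 90.1, 98.5 and 96.9 CPM in BCSC and 173, 158 and 153 CPM in non-BCSC. Its log2 fold change of -0.76 (SE 0.11, adjusted p = 0.00163) kept its sign with both corrections, at -0.45 (adjusted p = 0.0657) and -1.05 (adjusted p = 3.1e-05). HSF2, a factor that can pair with HSF1, had 23.5 ± 1.18 CPM in BCSC and 38.1 ± 6.38 in non-BCSC, a log2 fold change of -0.69 (adjusted p = 0.0249) that turned to 0.81 (adjusted p = 0.0222) with the correction fitted on all genes. Of 10 listed genes whose products modify HSF1 or act on it as cofactors, 5 were higher and 1 lower, and with the corrections 5 and 2, then 3 and 3. The kinases PRKAA1 (log2 fold change 0.37) and GSK3B (0.36) were higher under each of these fits, and the ubiquitin ligase subunit FBXW7 was lower (-0.44), but at 0.29 and an adjusted p of 0.249 with the all-gene correction.

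Of the HSP70 chaperones, HSPA8 (HSC70, chr11:123057489-123062462) is the constitutive form. It stood at 2863, 2814 and 2317 CPM in BCSC and 2275, 2118 and 2113 CPM in non-BCSC. The groups did not overlap, though BCSC replicate 3 lay close to the highest non-BCSC library. The log2 fold change was 0.30 (SE 0.10), just short of the threshold (adjusted p = 0.0511). Without BCSC replicate 3 it was 0.38 (adjusted p = 0.0163), and with the corrections for GC content 1.02 (adjusted p = 0.00472) and 0.19 (adjusted p = 0.0865).

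HSPA1A and HSPA1B (chr6:31815543-31817942 and chr6:31827738-31830254) encode the stress-inducible HSP70 and are near copies of each other. Of the 50-base windows in the HSPA1A transcript, 75.1% also occur in HSPA1B, so how reads were split between them is uncertain. Both genes were measured at low levels. HSPA1B had 595, 323 and 236 counts in BCSC against 60, 86 and 30 in non-BCSC, or 29.3, 21.1 and 14.3 CPM and 4.95, 7.598 and 2.88 CPM. Every BCSC library exceeded every non-BCSC library. Its log2 fold change was 2.06 (SE 0.41, adjusted p = 0.00717), the widest of the 10 genes in the uncorrected fit. With the corrections it was 0.82 (adjusted p = 0.108) and 1.06 (adjusted p = 0.0439). HSPA1A had 94, 42 and 26 counts in BCSC against 22, 12 and 15 in non-BCSC, overlapping between groups, with a log2 fold change of 1.05 (SE 0.75, adjusted p = 0.312). That value changed sign with both corrections, at -0.29 (adjusted p = 0.779) and -0.03 (adjusted p = 0.980).

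Summed to avoid the split, the pair stood at 33.9, 23.8 and 15.8 CPM in BCSC and 6.77, 8.66 and 4.32 CPM in non-BCSC. The log2 fold change was 1.90 (SE 0.37, adjusted p = 0.00634), and leaving out single libraries gave 1.58 to 2.19. With the GC corrections it was 0.60 (adjusted p = 0.169) and 0.86 (adjusted p = 0.0472). Counts this low sat near a background that also differed between groups. The 391 olfactory receptor genes, which a breast cancer line is not expected to use, gave 1.03 to 3.19 counts per kb in BCSC and 8.33 to 15.3 in non-BCSC. Over the length of HSPA1B that background would be 0.434% to 3.4% of its counts in BCSC and 29.6% to 128% in non-BCSC, and for HSPA1A 81.6% to 220% in non-BCSC. With the background taken off, HSPA1B alone had a log2 fold change of 2.65 (adjusted p = 0.0691), and the pair had 2.77 (adjusted p = 0.0560). For HSF1 this background, taken over the mean length of all its annotated transcripts, was 9.51% to 17.8% of the non-BCSC counts. The log2 fold change without it was 1.44 (adjusted p = 0.0110). That mean is shorter than the 2133 nt of the HSF1 transcripts as counted. At the counted length the share would be larger, and that fit was not run. For the other 7 genes, also taken over mean lengths, it was at most 2.81% of the counts in any library. The fit with this background removed tested 16514 genes and moved the median log2 fold change of all genes to 0.09. In it HSPA8 stood at 0.05, HSP90AB1 at 0.03, HSP90AA1 at -0.68 and HSPD1 at -0.55.

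Both co-chaperones of HSP70 in the set were higher in BCSC. HSPH1 (HSP110, chr13:31134973-31162388), which exchanges the nucleotide of HSP70 and helps it to dissolve aggregates, was at 390, 367 and 416 CPM in BCSC and 263, 295 and 290 CPM in non-BCSC. All BCSC values lay above all non-BCSC values, and the log2 fold change was 0.47 (SE 0.10, adjusted p = 0.00818). HSPH1 has the lowest GC content of the set (39.1%) and held at 1.34 (adjusted p = 0.000486) and 0.48 (adjusted p = 0.00225) with the corrections, but was 0.24 (adjusted p = 0.125) with background removed. DNAJB1 (HSP40, chr19:14514769-14560391), a J-domain protein that passes substrates to HSP70 and feeds back on HSF1, was at 262, 209 and 162 CPM in BCSC and 122, 103 and 106 CPM in non-BCSC. Its log2 fold change of 0.94 (SE 0.17, adjusted p = 0.00447) stayed between 0.31 and 1.09, with an adjusted p of at most 0.0447, under all 18 alternatives. With the corrections it was 0.49 and 0.31, where the medians of abundant genes were 0.75 and 0.0026.

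DNAJB1 counts also changed form from library to library. DNAJB1-201 held 13.6%, 73.3% and 91.8% of them in BCSC and 96.7%, 91.2% and 62.6% in non-BCSC (exact p = 0.6). DNAJB1-204, a longer coding form, had 1671, 446 and 148 counts in BCSC against 2, 13 and 6 in non-BCSC (edgeR adjusted p = 0.0769 over all transcripts). Each BCSC library thus held more of the longer form than any non-BCSC library, by amounts that differed greatly between replicates.

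Of 6 tested genes among the other HSP70 and HSP110 relatives, 1 was higher and 3 lower, and with the corrections 3 and 0, then 1 and 3. HSPA4 (406 ± 12.4 against 633 ± 16.8 CPM) and HSPA4L (111 ± 8.84 against 199 ± 14.5 CPM), which like HSPH1 are exchange factors of the HSP110 class, were lower at log2 fold changes of -0.64 (adjusted p = 0.00122) and -0.84 (adjusted p = 0.00119). With the all-gene correction they were at 0.06 and -0.03. HSPA14, a ribosome-linked HSP70, was lower at -0.62 but at 0.87 (adjusted p = 0.0217) with that correction. HSPA13, a microsomal HSP70-like ATPase, was higher at 0.49 (adjusted p = 0.0116) and in both corrected fits. HSPA6, an HSP70 made almost only under strong stress, had 0 to 15 counts per library and was not tested.

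Among 14 J-domain co-chaperones 4 were higher and 2 lower, against 9 higher with the all-gene correction and 2 and 3 with the other. DNAJA1, a cytosolic partner of HSC70, was at 359 ± 13.7 CPM in BCSC and 230 ± 6.78 in non-BCSC (log2 fold change 0.64, adjusted p = 0.00153), and DNAJC9, which also handles histones, was at 99.1 ± 6.47 and 54.9 ± 13.8 CPM (0.85, adjusted p = 0.00857). Both were also higher in each corrected fit. DNAJC5, found on vesicles, was higher at 1.32 (adjusted p = 0.0113) but passed with neither correction, and DNAJC8, a splicing-linked member, was lower at -0.83 (adjusted p = 0.00076) but at 0.10 with the all-gene correction. Of 9 nucleotide exchange factors and other HSP70 partners, 1 was higher and 1 lower, and with the corrections 4 and 2, then 0 and 2. BAG6, which guards newly made membrane proteins, was higher at 1.20 (adjusted p = 0.00697), but at -0.06 and 0.12 with the corrections, passing in neither. ST13 (HIP), which slows HSP70 release, was lower at -0.40 (adjusted p = 0.0201) and turned to 0.85 (adjusted p = 0.0163) with the all-gene correction.

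Of the cytosolic HSP90 pair, the alpha form was lower in BCSC in the uncorrected fit and the beta form did not pass. HSP90AA1, the inducible alpha form (chr14:102080742-102139749), was at 3415, 3551 and 3219 CPM in BCSC and 4461, 4817 and 4473 CPM in non-BCSC. It was lower in BCSC with no overlap, at a log2 fold change of -0.43 (SE 0.08, adjusted p = 0.00589), -0.44 (adjusted p = 0.00105) with the correction fitted on abundant genes, and 0.62 (adjusted p = 0.0526) with that fitted on all genes. HSP90AB1, the constitutive beta form (chr6:44246194-44253883), was at 1478, 1447 and 1106 CPM in BCSC and 1151, 1150 and 1023 CPM in non-BCSC. The groups overlapped through BCSC replicate 3, and its log2 fold change of 0.28 (SE 0.12) did not pass (adjusted p = 0.110), but did without that library (0.39, adjusted p = 0.0227). With the corrections it was 0.67 (adjusted p = 0.0289) and 0.03 (adjusted p = 0.840).

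Taken per length, HSP90AA1 exceeded HSP90AB1 in all libraries, by a TPM ratio of 1.83, 1.95 and 2.33 in BCSC against 3.08, 3.33 and 3.48 in non-BCSC. The ratio of alpha to beta was thus lower in every BCSC library (2.04 ± 0.260 against 3.30 ± 0.203), at the smallest exact two-sided p that the design allows (p = 0.1). The 2 genes differ in GC content, at 41.7% and 47.2%, and the ratio is not corrected for it.

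HSP90AA1-201, the usual short transcript, was the only one of the 41 member transcripts tested that passed over all 46176 transcripts (log2 fold change -0.45, edgeR adjusted p = 0.0465), where 0.204% of transcripts were lower. It did not pass with any library left out. Of the members' transcripts 0 were higher by edgeR, where 0.606% of transcripts were. At an unadjusted p under 0.05, 11 were higher, and by DESeq2 9 were higher and 2 lower. The shares of all transcripts at those criteria are not given here, so no excess can be read from these counts. In simulated counts at the fitted dispersions, the edgeR transcript test called 0 of 100 transcripts changed 2-fold and 0 of 100 changed 4-fold. A transcript that did not pass therefore cannot be read as unchanged. HSP90AA1-202, which encodes a longer protein, had 8696, 2696 and 778 counts in BCSC and 0 in each non-BCSC library, where a count of 0 allows up to 3 counts (unadjusted p = 0.00157, adjusted p = 0.0678). These counts were a minor share, since HSP90AA1-201 held 87.1% to 97.8% of the gene in BCSC.

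Of 14 HSP90 co-chaperones, 3 were higher and 2 lower, and with the corrections 4 and 3, then 0 and 5. FKBP5, an immunophilin that slows steroid receptor maturation and responds to glucocorticoids, was at 223 ± 9.53 CPM in BCSC and 499.6 ± 62.7 CPM in non-BCSC (log2 fold change -1.16, SE 0.11, adjusted p = 0.000294). It stayed negative with the corrections, at -0.43 (adjusted p = 0.117) and -1.25 (adjusted p = 9.8e-06). Its relative FKBP4, which favours receptor maturation, was higher at 0.70 (adjusted p = 0.0180), and at 0.15 (adjusted p = 0.374) with the correction fitted on abundant genes. PPID (cyclophilin 40) was lower at -0.88 (adjusted p = 0.00628), but at 0.33 with the all-gene correction, and NUDC was higher at 0.95 (adjusted p = 0.0210) but passed with neither correction.

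HSPB1 (HSP27, chr7:76302673-76304292), a small chaperone that holds unfolded proteins without ATP and guards the actin skeleton, was at 224, 144 and 126 CPM in BCSC and 56.2, 40.7 and 36.2 CPM in non-BCSC. The lowest BCSC library was above the highest non-BCSC library by a wide margin. Its log2 fold change was 1.89 (SE 0.24, adjusted p = 0.000968), the smallest p of the 10 genes, and lay between 1.60 and 2.15 with single libraries left out. HSPB1 is the most GC-rich of the set (65.2%). With the corrections its value stayed above 0, at 0.31 (SE 0.17, adjusted p = 0.172) and 0.70 (SE 0.12, adjusted p = 0.00256). The medians of abundant genes, of which HSPB1 is one, were 0.75 and 0.0026 in those fits. In the first fit HSPB1 thus lay below that median. Retained-intron forms, mainly HSPB1-203, took 3.69% to 12.95% of its counts in BCSC and 1.91% to 4.77% in non-BCSC. Of the other small heat shock proteins 8 of 9 were on file and 2 tested. HSPB8, which works with BAG3 in selective autophagy, was higher, with 8.16 ± 2.55 against 2.83 ± 0.206 CPM (log2 fold change 1.53, adjusted p = 0.0286), and at 1.06 (adjusted p = 0.0799) with the correction fitted on abundant genes.

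**Figure D3:**
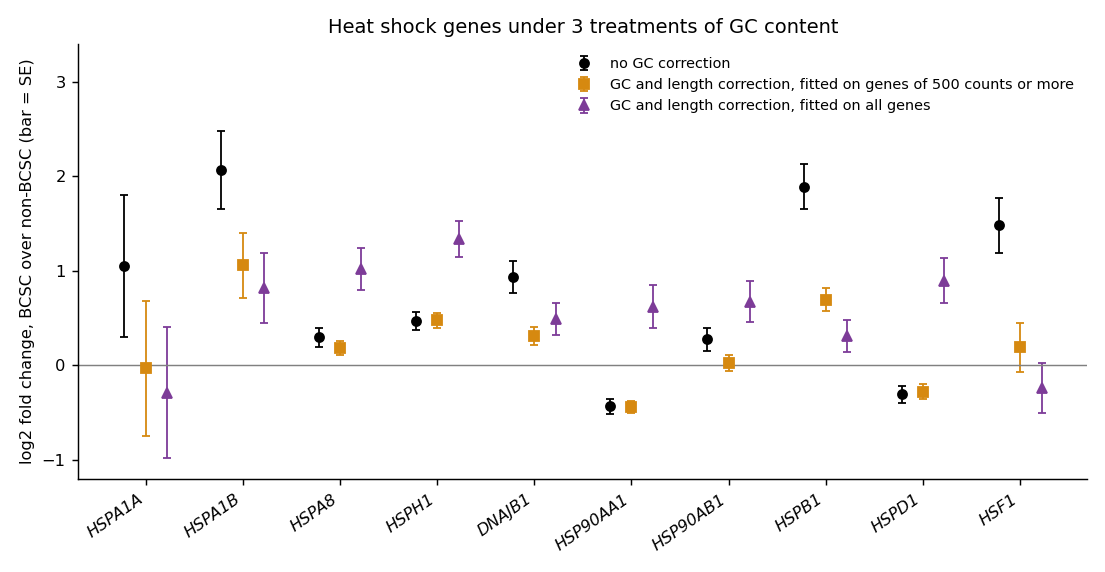
Log2 fold change of BCSC over non-BCSC for the 10 genes without a GC correction (circles) and with the correction fitted on abundant genes (squares) or on all genes (triangles); bars are SE. HSF1, HSP90AA1, HSPD1 and HSPA1A change sign in at least 1 corrected fit, while HSPB1, HSPA1B, DNAJB1, HSPH1, HSPA8 and HSP90AB1 stay above 0.

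HSPD1 (HSP60, chr2:197486584-197500274) forms the mitochondrial folding chamber, and HSPE1 (HSP10, chr2:197500379-197503449), its lid, lies next to it on the opposite strand. HSPD1 was at 971, 1016 and 878 CPM in BCSC and 1185, 1232 and 1122 CPM in non-BCSC. The groups did not overlap, but the difference was small, at a log2 fold change of -0.31 (SE 0.09, adjusted p = 0.0339). It lost significance with any of the 6 libraries left out (adjusted p 0.0638 to 0.172) and turned to 0.90 (adjusted p = 0.0133) with the all-gene correction, against -0.28 (adjusted p = 0.0252) with the other. HSPE1 was at 19.4, 27.1 and 31.3 CPM in BCSC and 54.8, 49.0 and 42.0 CPM in non-BCSC, lower at -0.91 (SE 0.22, adjusted p = 0.0137). With the corrections it was at 0.04 (adjusted p = 0.905) and -0.50 (adjusted p = 0.0813). The TPM ratio of HSPD1 to HSPE1 was 7.71 ± 2.88 in BCSC and 5.66 ± 0.656 in non-BCSC (exact p = 0.3).

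The HSPD1 counts were split differently between transcripts in the groups. Protein-coding transcripts held 7.96%, 45.3% and 35.3% of the counts in BCSC against 76.9%, 79.6% and 78.2% in non-BCSC, with no overlap (exact p = 0.1, the smallest possible). In BCSC replicate 1, 67.7% of the counts were given to transcripts annotated for nonsense-mediated decay, with 13105 counts in HSPD1-216, whereas that class held 0.868% or less in the other 5 libraries. In BCSC replicates 2 and 3, retained-intron transcripts held 54.2% and 63.8%, against 20.4% to 22.6% in non-BCSC. From coding transcripts alone HSPD1 stood at 89.0, 548 and 381 CPM in BCSC and 1173, 1285 and 1206 CPM in non-BCSC, a log2 fold change of -1.85 (SE 0.66, adjusted p = 0.110). These splits come from an estimate over 24 annotated transcripts, and 27.1% of the 50-base windows of HSPD1-202 also occur in other genes, mainly its pseudogenes. The 18 HSPD1 pseudogenes summed to 1.57% of the HSPD1 counts in BCSC and 3.37% in non-BCSC.

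**Figure D4:**
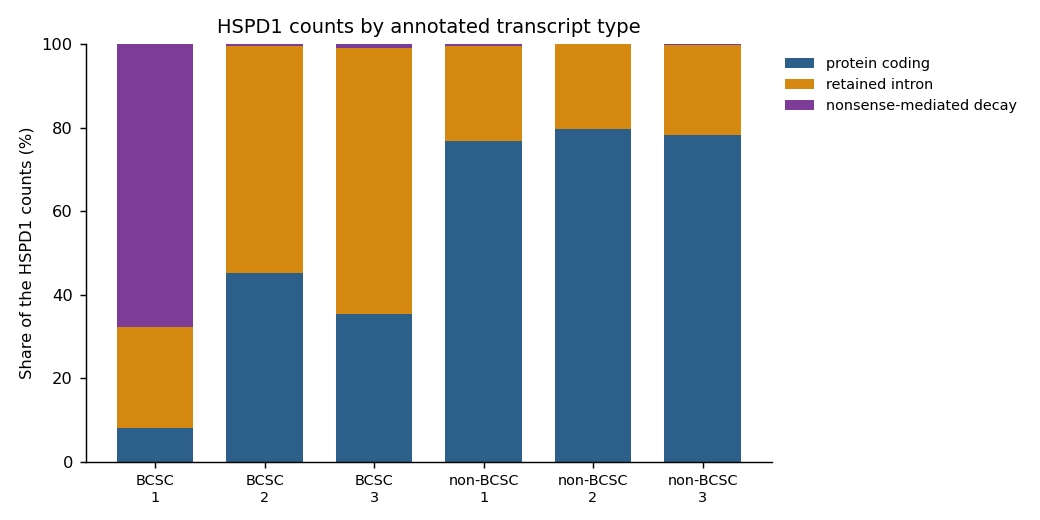
Share of the HSPD1 counts given to protein-coding, retained-intron and nonsense-mediated decay transcripts in each library, in percent, stacked to 100. The coding share is at most 45.3% in BCSC and at least 76.9% in non-BCSC, and the decay class fills most of BCSC replicate 1.

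Of 10 other mitochondrial chaperones and proteases 3 were higher and 3 lower, against 3 and 2, then 2 and 4, with the corrections. GRPEL2, an exchange factor of mitochondrial HSP70, was higher, with 180 ± 9.55 against 126 ± 6.96 CPM (log2 fold change 0.52, adjusted p = 0.00692), and in both corrected fits. With background removed it was 0.30 (edgeR adjusted p = 0.0535). HSPA9 (mortalin), that HSP70 itself, was lower at 917 ± 16.4 against 1208 ± 55.0 CPM (-0.40, adjusted p = 0.00869), and at 0.31 (adjusted p = 0.256) with the all-gene correction. CLPP, the matrix protease, was higher at 15.4 ± 7.48 against 3.13 ± 1.72 CPM (2.29, adjusted p = 0.0108), with adjusted p of 0.0506 and 0.0326 in the corrected fits. In the cytosolic chaperonin, 1 of 8 CCT subunits was higher, CCT3 (0.93, adjusted p = 0.00202, and in each corrected fit), and 1 lower, CCT6A (-0.70, adjusted p = 0.00173, but 0.40 with the all-gene correction). With that correction 6 of the 8 were higher, where 25.9% of all genes were and the median log2 fold change of abundant genes was 0.75. Of 6 prefoldin subunits VBP1 passed, at 0.54 (adjusted p = 0.0297) and in both corrected fits.

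A list of 20 genes known as HSF1 targets, some of them in the lists above, had 4 higher and 4 lower of 19 tested, with a median log2 fold change of 0.18. With the corrections the split was 7 and 2, then 1 and 6. SERPINH1 (HSP47), the collagen chaperone, named after its value was seen, was at 39.2 ± 15.9 CPM in BCSC and 16.1 ± 6.99 in non-BCSC (log2 fold change 1.29, adjusted p = 0.0288), and at 0.14 (adjusted p = 0.789) and 0.30 (adjusted p = 0.498) with the corrections. CACYBP, a binder of the ubiquitin machinery, was lower at -0.56 (adjusted p = 0.00497) and turned to 0.73 (adjusted p = 0.0152) with the all-gene correction. BAG3, an HSP70 partner strongly induced by HSF1 under stress, did not pass, at 93.5 ± 11.4 against 81.2 ± 13.6 CPM (0.20, adjusted p = 0.351), but was lower with both corrections, at -0.88 (adjusted p = 0.00633) and -0.69 (adjusted p = 0.00621). Of the 8 tested immediate early genes, which rise within minutes when cells are handled or stressed, JUN passed at 0.87 (adjusted p = 0.0132), with corrected values of 0.01 and 0.02. Of the 104 listed chaperone and heat shock genes other than the 10, 89 were tested, of which 22 were higher and 16 lower. Of all genes, 15.3% were higher and 14.6% lower. With the corrections the totals were 39 and 9, then 10 and 25. The shares of all genes were then 25.9% and 10%, and 8.04% and 19.1%.

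**Figure D5:**
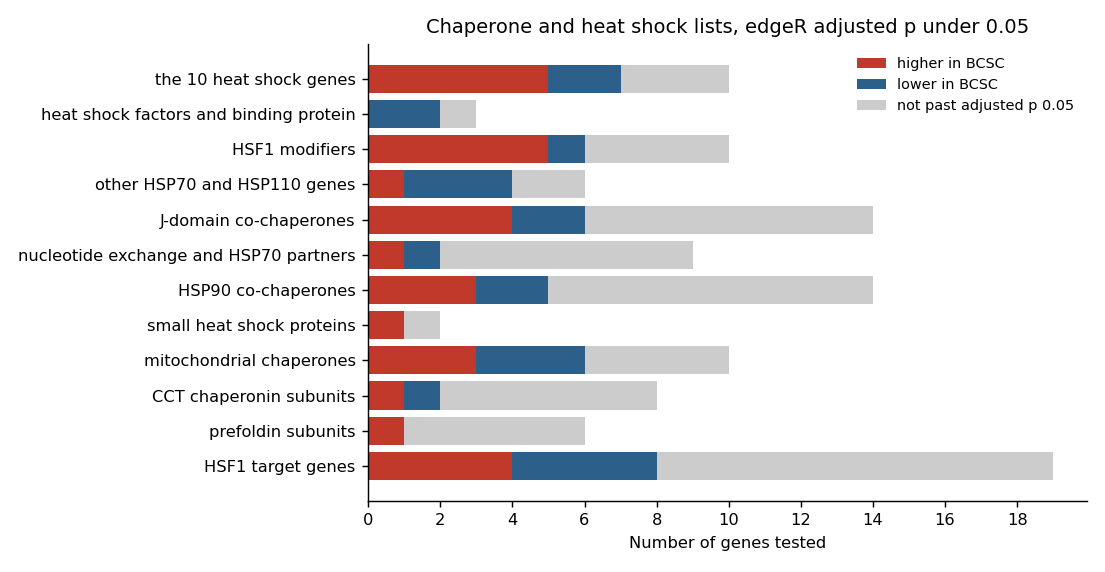
Number of genes tested in each chaperone or heat shock list that were higher or lower in BCSC, or did not pass an adjusted p of 0.05, without a GC correction. Of the 10 heat shock genes 5 were higher and 2 lower, and most lists hold genes in both directions. Of all genes tested, 15.3% were higher and 14.6% lower.

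Compared with each other per length, HSPA8 was the most abundant member in BCSC at 3110 ± 282 TPM, with HSP90AA1 at 2749 ± 122 overlapping it. HSP90AB1 (1365 ± 170), HSPD1 (877 ± 89.7) and HSPB1 (528 ± 158) followed. DNAJB1 (235 ± 40.2) and HSPH1 (209 ± 19.3) overlapped each other, as did HSF1 (33.2 ± 6.44) and HSPA1B (22.1 ± 6.90), and HSPA1A was last at 3.19 ± 1.54. In non-BCSC HSP90AA1 led at 3742 ± 221 TPM, above HSPA8 (2539 ± 64.1), HSPD1 (1244 ± 58.9) and HSP90AB1 (1135 ± 42.1), none of which overlapped. HSPB1 (147 ± 29.9) overlapped both HSPH1 (153 ± 13.4) and DNAJB1 (127 ± 9.70), before HSF1 (13.97 ± 3.42), HSPA1B (5.32 ± 2.41) and HSPA1A (1.57 ± 0.381).

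In TPM HSPD1 and HSP90AB1 thus stood in opposite order in the fractions, without overlap in either, whereas HSPA8 and HSP90AA1 were separated in non-BCSC and overlapped in BCSC. The TPM of HSPD1 depends on the estimated split between its transcripts, which differ in length. In CPM the non-BCSC values of HSPD1 (1122 to 1232) and HSP90AB1 (1023 to 1151) overlapped. HSPA8 exceeded its co-chaperone DNAJB1 13.4 ± 1.27 fold in BCSC and 20.1 ± 1.11 fold in non-BCSC, with no overlap (exact p = 0.1). No such ratio is given to the inducible pair, whose non-BCSC counts were near the background. The ratio of HSPA8 to HSPH1 overlapped between groups, at 15.1 ± 2.60 and 16.7 ± 1.66 (exact p = 0.6). These orders and ratios are not corrected for GC content, which was 45.3% for HSPA8 and 52.7% for DNAJB1. With the corrections the log2 fold changes were 1.02 and 0.19 for HSPA8 and 0.49 and 0.31 for DNAJB1. They were 0.90 and -0.28 for HSPD1 and 0.67 and 0.03 for HSP90AB1. The 10 genes together took 0.890% ± 0.0636 of all counts in BCSC and 0.963% ± 0.0157 in non-BCSC (exact p = 0.1). Per length their sum was 9131 ± 687 TPM in BCSC and 9107 ± 208 TPM in non-BCSC (exact p = 1).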

How the data were processed

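The 6 libraries were made from total RNA with random primers and a dUTP-marked second strand that was removed, which keeps strand. The authors deposited estimated counts per transcript, as whole numbers without normalization. The submitters' processing notes name hg38, HISAT2, featureCounts and DESeq2, whereas the study's methods name hg19. The step that assigned reads to transcripts is not given in the sources used here. Transcripts were joined by identifier to GENCODE release 44 (249787 of 252618, 98.9%) and summed per gene. The join does not depend on the build, and 4 assembler-made rows were left out. Positions and sequences are RefSeq GRCh38.p14.

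The test of gene sums used edgeR 4.0.16 under R 4.3.3, with TMM, filterByExpr and robust quasi-likelihood dispersions, on group alone. A log2 fold change is BCSC over non-BCSC, and its SE follows from the fitted F. Pairs of replicates differed by more than counting noise (chi-square per degree of freedom 16.8 to 57.6). A count of 0 allows 3 counts, 0.141 to 0.303 CPM, which covers counting error only. Ratios and shares were compared by exact permutation, 3 against 3.

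Genes named were the 10 members, up to 4 genes per list with the smallest p among those with an adjusted p under 0.05 and a mean of at least 50 counts, and HSPE1. DNAJB1, HSPD1 and other transcripts, HSPA6, BAG3 and SERPINH1 were named after their values were seen. The members and lists were chosen with earlier results of these data known. Alternatives were RLE size factors, DESeq2 1.42.0, other filters, a replicate block, GC and length corrections (loess, span 0.3, per library), background removal, thinning, coding transcripts alone, added pseudogenes and each replicate left out. HSPB11 and PECAM1 were not matched and are not analysed here.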

Additional observations from a re-analysis of the deposited data

How the results depend on the processing

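RLE size factors, DESeq2, thinned counts, added pseudogenes and a minimum of 10 counts each gave 5 members higher and 2 lower. Shares of all genes at an adjusted p under 0.05 are given for the main fit and the 2 GC corrections only. Counts of members and listed genes in the other fits have no matching share beside them. No filter left 1 lower, as did coding transcripts alone and each omission of 1 library (5 to 7 higher), and removing background left 3 higher. The median log2 fold change of all genes was -0.14 with RLE size factors and -1.02 over the 49795 genes tested without a filter. The GC correction on all genes left 0 lower, and with the replicate block 8 higher and 0 lower, and 1 above a 2-fold change, as did the correction fitted on abundant genes. Reversed values under the all-gene correction were HSPA1A -0.29, HSP90AA1 0.62, HSPD1 0.90 and HSF1 -0.24. With the block added they were -0.32, 0.60, 0.88 and -0.22, at edgeR adjusted p of 0.796, 4.2e-05, 9.3e-06 and 0.523. The correction fitted on abundant genes, added after the data were seen, reversed HSPA1A (-0.032). The cause was not tested. The HSPA1A plus HSPA1B sum lost its call at 0.60 (all-gene correction), 0.66 (block and correction) and 2.77 (background removed), and ran from 1.58 to 2.19 over omitted libraries.

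Replicate numbers did not qualify as pairs (correlations of deviations 0.21, 0.0649 and 0.231), although each library correlated best with its own number. A replicate block gave 7 members higher and 2 lower, adding HSPA8 (adjusted p = 0.0198) and HSP90AB1 (adjusted p = 0.0315), and 0 member transcripts lower. The shares of all genes that passed with the block are not given here, so no excess can be read from these counts.

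Other listed genes higher and lower numbered 39 and 9 with the all-gene correction, 10 and 25 with the other, 9 and 25 without background, and 45 higher with block and correction. Over omitted libraries they ran from 10 to 22 and from 8 to 14. For all genes, a call needed a fold above 2 as well unless stated. Calls higher were 3290 with the all-gene correction, 438 with the other, 3263 with block and correction and 3125 with no minimum fold. Calls lower were 3512 by DESeq2, 1177 with at least 10 counts, 1439 with block and correction and 1081 without background. Over omitted libraries they ran from 959 to 2230 higher and from 1103 to 3004 lower. Member transcripts higher were 9 by DESeq2 and 1 with at least 10 counts, and those lower were 2 by DESeq2 and 0 over each omitted library. No matching shares of all transcripts are given for these fits. HSPA1A, HSPA1B and HSF1 had the fewest counts, 12 to 654 per library. Thinned to the smallest library they were at 0.95 (adjusted p = 0.343), 2.03 (adjusted p = 0.00396) and 1.38 (adjusted p = 0.00649).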
